A study of Homo sapiens with 4 samples.

Results

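KCNMA1 encodes the pore-forming alpha subunit of the BK channel, a potassium channel of large conductance that opens on depolarisation and on a rise of intracellular calcium. The channel is a tetramer, it repolarises excitable cells and sets smooth muscle tone, and its transcript is long and heavily spliced into isoforms of differing calcium sensitivity. KCNMA1 lies on the minus strand of chromosome 10 at chr10:78629359-79398127 (hg19), spans 768.8 kb and is annotated with 96 transcripts in GENCODE. All peak summits inside these limits were taken as members, without regard to their score, which gave 231 of the 1031599 summits in the 3 deposited lists. A summit is the single base at the top of a peak of crosslinked tags, and its score is the −log10 of the p-value of the peak against the IgG pull-down.

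The summits came from HITS-CLIP, in which RNA is crosslinked to protein by ultraviolet light, pulled down with an antibody and sequenced. HEK293 cells, an established line from human embryonic kidney, were transfected with siRNA (by Oligofectamine in the labels, while the study's methods name calcium phosphate for knockdowns), harvested after 48 hours and crosslinked at 400 mJ/cm2, and RNA was pulled down with an antibody to Star-PAP, a non-canonical nuclear poly(A) polymerase that acts at the 3′ ends of selected mRNAs. The 3 Star-PAP pull-downs were the control (labelled StarPAP pulldown, with no siRNA named), siStar-PAP (transient depletion of Star-PAP) and siRBM10 (transient depletion of RBM10, an RNA-binding protein and splicing regulator studied here as a partner of Star-PAP), and an IgG pull-down of the same cell line was their common reference. Each was 1 library, so no difference between conditions has a replicate check and none was tested. The lists give no strand, so tags from KCNMA1 and from antisense RNA cannot be told apart, and they give no transcript level, so neither depletion could be checked in them and changes in KCNMA1 RNA and in its association with Star-PAP cannot be told apart. Peak names in the control list carry another set name than those of both depletion lists, so condition and set cannot be told apart. Intervals cover counting error only, at a level of 95%.

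The sites on which the description turns lie at the 3′-UTR, around exons 15, 16 and 26, and at the highest score of each list. Their sequences are printed 5′ to 3′ on the minus strand from hg19, the summit base in a capital, with exons and introns numbered by the representative transcript of 28 exons.
control, 3′-UTR in exon 28, chr10:78646984-78647013: caccgccactgtgtGaaactgtatctgcca
control, coding sequence of exon 15, chr10:78799368-78799397: agattgaggaagacAcatggcagaaatact
siStar-PAP, intron 15, 10 bp after exon 15, chr10:78799261-78799290: tgtgagtaagtgacCtttaactggatgctc
siStar-PAP, intron 15, 49 bp before exon 16, chr10:78787683-78787712: gtgtgttatgtggcTctggtcattcagaag
siRBM10, intron 16, 101 bp after exon 16, chr10:78787465-78787494: gtgcattatttatcTgcatggaaccagatg
siStar-PAP, intron 25, 32 bp before exon 26, chr10:78651494-78651523: ggtgtttgcttaaaGgacttttccctcact
siRBM10, coding sequence of exon 26, chr10:78651270-78651299: catttgcggacttaGgggtgagtccacagc
control, highest score, intron 1, chr10:79221856-79221885: gtttatgttagtgtGtgcatgtttctgtgt
siStar-PAP, highest score, intron 3, chr10:78967460-78967489: gtataggaagggccAcacaacctgaacaga
siRBM10, highest score, intron 19, chr10:78737492-78737521: tagcaggttgggtgGtagggacagtagagt

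KCNMA1 held 53 control summits, 84 siStar-PAP summits and 94 siRBM10 summits. The exact Poisson interval of the control number was 39.7 to 69.3, that of siStar-PAP was 67.0 to 104 and that of siRBM10 was 76.0 to 115. The control interval overlapped narrowly with that of siStar-PAP and not with that of siRBM10, and the intervals of both depletion libraries overlapped widely. Relative to the control, the number in KCNMA1 was 1.58 times (1.11 to 2.28) as high on siStar-PAP and 1.77 times (1.25 to 2.53) as high on siRBM10, by exact conditional intervals of the ratio. The whole lists went the other way, with ratios of 0.792 for siStar-PAP and 0.716 for siRBM10, and so did chromosome 10, with 0.884 and 0.824. Of the 4840 protein-coding genes with at least 10 control summits, 25.7% held more summits on siStar-PAP than in the control and 21.4% held more on siRBM10. The median of these genes had ratios of 0.64 and 0.572. This limit was set on the control list alone, which favours genes with high control counts. Its part in these shares and ratios was not tested. Among the 258 long protein-coding genes described below, chosen by length alone, the median ratios were lower still, 0.460 for siStar-PAP and 0.469 for siRBM10. Over all 20163 protein-coding genes there was no limit on control summits or length. Of these, 44.2% had more summits than the control in both depletion lists and 26% had fewer in both.

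The density of summits in KCNMA1 was 68.9 per Mb in the control, 109.3 per Mb on siStar-PAP and 122.3 per Mb on siRBM10. Chromosome 10 as a whole had 132.0, 116.7 and 108.7 summits per Mb of determined sequence in the same order. KCNMA1 was therefore at 0.522 of the density of its chromosome in the control list, at 0.937 on siStar-PAP and at 1.13 on siRBM10. Neighbouring summits in the gene stood a median of 7.54 kb apart in the control, 5.02 kb on siStar-PAP and 6.02 kb on siRBM10. The widest stretches without a summit spanned 47.7, 55.0 and 34.2 kb in the same order. Summits are single bases, so these distances do not show how far the peaks extend.

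The excess over the control depended on the scores counted. With p at most 0.01, KCNMA1 held 22 control, 71 siStar-PAP and 89 siRBM10 summits, ratios of 3.23 and 4.05, while the whole lists then had ratios of 2.0 and 1.93. Among summits that scored above the commonest value of their own list, the numbers were 24, 10 and 15, and the ratios turned to 0.417 and 0.625 beside list ratios of 0.25 and 0.308. The direction of the ratio therefore differed between these limits. The latter limit sits at 1.33 in the control, 2.92 on siStar-PAP and 3.25 on siRBM10, so the control was counted from a lower score. Under it the interval of the ratio was 0.178 to 0.904 for siStar-PAP and 0.305 to 1.24 for siRBM10. At a score of at least 3 in every list, a limit chosen after the data were seen, there were 10, 10 and 38 summits. At a score of at least 4, also chosen afterwards, there were 5, 5 and 7. The ratio of KCNMA1 divided by that of the whole list was 2.0 for siStar-PAP and 2.48 for siRBM10 over all summits, lay between 1.62 and 2.10 under both of the former filters and was 1.05 and 1.07 at a score of at least 3. Divided by that of chromosome 10, the ratio was 1.41 and 1.51 at a score of at least 3. At a score of at least 4 the ratio over that of the list was 0.490 and 0.388, from the 5, 5 and 7 summits left.

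The scores of KCNMA1 summits had a median of 1.33 in the control, 2.49 on siStar-PAP and 2.83 on siRBM10, beside list medians of 1.33, 2.64 and 2.83. They ranged from 1.3 to 6.80, from 1.5 to 5.74 and from 1.62 to 6.31 in the same order. The highest score of the gene was reached or passed by 0.268%, 0.733% and 0.717% of the summits of its list. A score of at least 4 was found at 9.43% of control summits in KCNMA1 beside 2.49% of the list, at 5.95% beside 6.42% on siStar-PAP and at 7.45% beside 12.5% on siRBM10. In the control, 27 of the 53 summits (50.9%) shared the commonest score of the list, 1.33, as did 63.2% of the whole list. The value 2.92, which recurred most often in the siStar-PAP list, was found at 3 of 84 summits (3.57%) beside 22.8% of the list, and its counterpart in the siRBM10 list, 3.25, at 10 of 94 (10.6%) beside 22.7%.

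**Figure D1:**
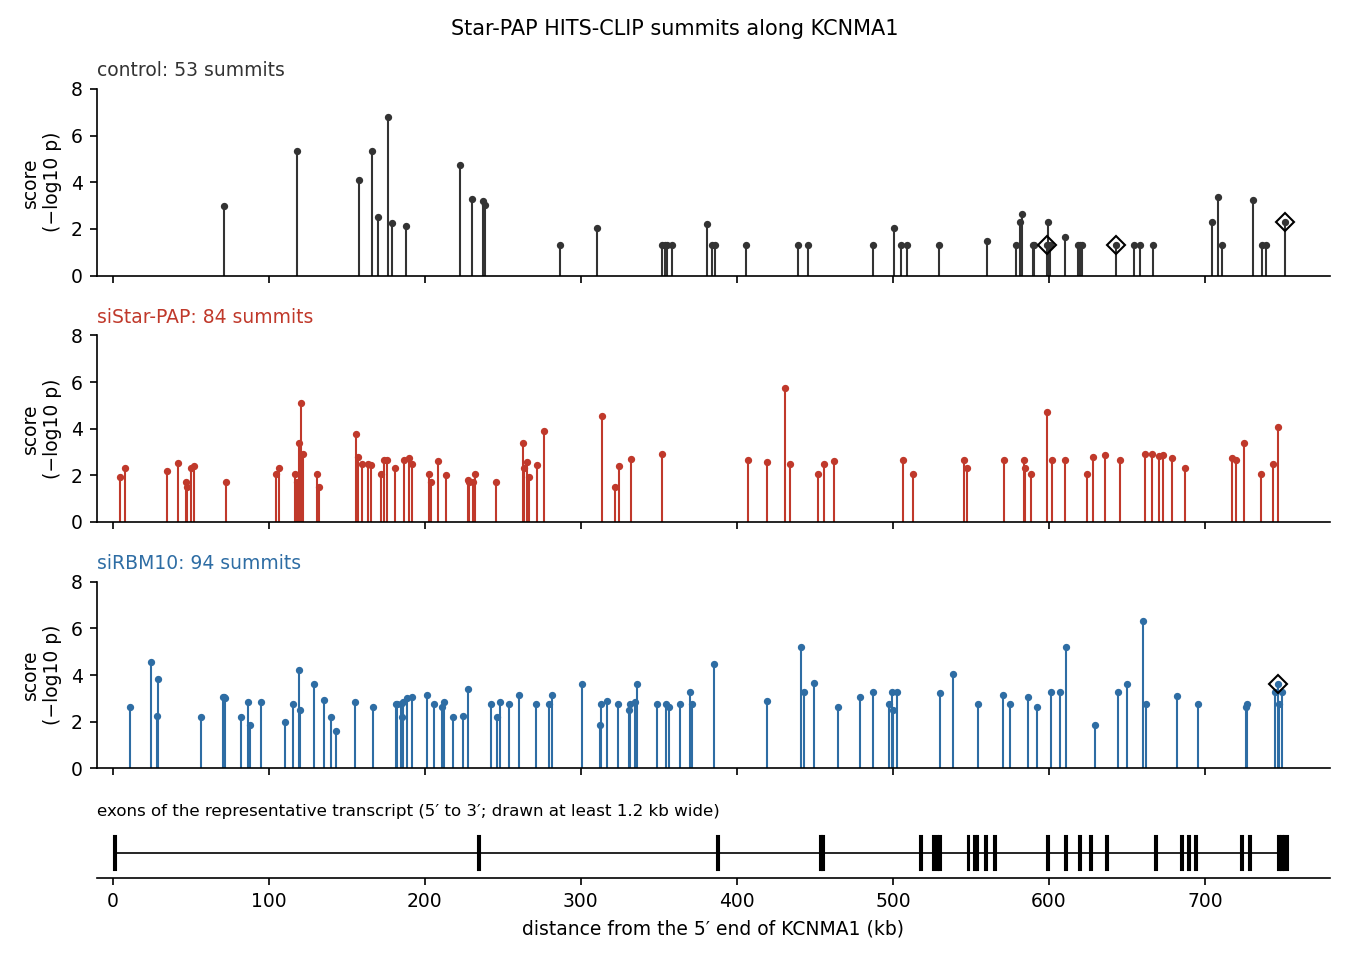
Score of each summit (−log10 p, vertical axis) against its distance from the 5′ end of KCNMA1 in kb (horizontal axis), with 1 panel per library and the exons of the representative transcript as a track. Open diamonds are summits in coding sequence or 3′-UTR, of which the control has 3, siStar-PAP 0 and siRBM10 1, and the 53 control summits thin out towards the 5′ end.

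Along the gene, the control and the depletion libraries differed most at the 5′ end when all summits were counted. The gene was divided into 10 segments of equal length, and from the 5′ end on they held 1, 1, 8, 3, 7, 4, 5, 10, 7 and 7 control summits. In the same order siStar-PAP had 9, 9, 18, 9, 5, 6, 3, 9, 10 and 6. For siRBM10 the segments held 8, 12, 16, 9, 14, 5, 8, 9, 6 and 7 summits. The control was lowest in segments 1 and 2, where both depletion libraries had at least 8 summits each. Segments 1 to 5 together held 20 control summits, 50 on siStar-PAP and 59 on siRBM10, ratios to the control of 2.5 (1.46 to 4.43) and 2.95 (1.75 to 5.17). Segments 6 to 10 held 33, 34 and 35 summits, with ratios of 1.03 (0.619 to 1.72) and 1.06 (0.640 to 1.76). The libraries were level there. Segments 1 and 2, singled out after the values were seen, had 2, 18 and 20 summits.

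This even count in segments 6 to 10 held only without regard to score. With p at most 0.01, segments 6 to 10 held 8 control, 34 siStar-PAP and 34 siRBM10 summits, and segments 1 to 5 held 14, 37 and 55. The order of the ratios to the control then turned round. They were 4.25 for both depletion libraries in segments 6 to 10, and 2.64 (siStar-PAP) and 3.93 (siRBM10) in segments 1 to 5. The whole lists had ratios of 2.0 and 1.93 at this limit. Scores depend on depth, so a fixed limit across lists is a description only. Other limits changed the direction in segments 1 to 5. Above the commonest score of each list, these segments held 14 control, 6 siStar-PAP and 7 siRBM10 summits, ratios of 0.429 and 0.5. At a score of at least 3 they held 8, 6 and 16, ratios of 0.75 and 2. At a score of at least 4 they held 5, 2 and 2, a ratio of 0.4 for both. In segments 6 to 10, 22 of the 33 control summits had the commonest score of the list, and in segments 1 to 5 this was so for 5 of 20. The share of KCNMA1 summits in segments 1 to 5 was 37.7% in the control over all summits and 63.6% with p at most 0.01. GC content moved with position, from 47.5% in segment 1 to 41.0% in segment 10, and was 46.0% over segments 1 to 5 and 41.9% over segments 6 to 10. Its part in the counts was not tested.

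**Figure D2:**
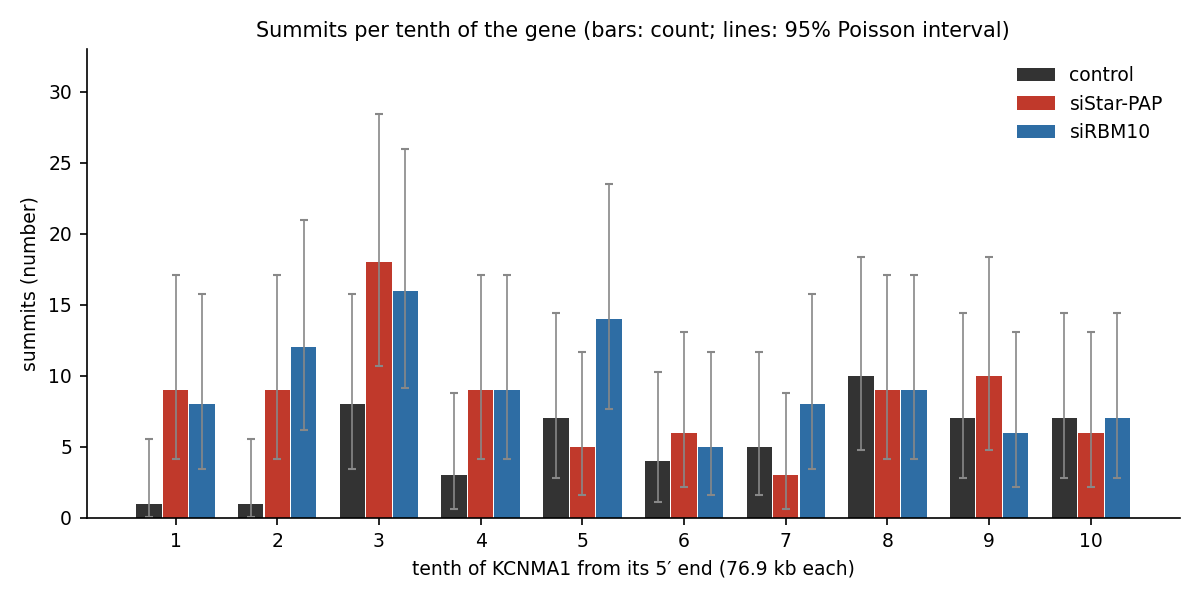
Number of summits (bars, vertical axis) in each of 10 equal segments of KCNMA1 from 5′ to 3′ (horizontal axis) for the control, siStar-PAP and siRBM10, with exact 95% Poisson intervals as error bars. Segment 1 has 1 control, 9 siStar-PAP and 8 siRBM10 summits, while segment 10 has 7, 6 and 7.

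Most of KCNMA1 is intron, 97.1% by the representative transcript, and so were most of its summits. The first intron, 233.2 kb long, held 10 control, 38 siStar-PAP and 36 siRBM10 summits, or 4.29, 16.3 and 15.4 per 100 kb. Both depletion libraries were above the control there when all summits were counted. The second intron, 152.6 kb long, held 11, 12 and 24 summits, or 7.21, 7.86 and 15.7 per 100 kb, so that siStar-PAP lay next to the control and siRBM10 above both. Introns 3 to 27 together held 30, 34 and 33 summits and differed by less than their counting error. At p of at most 0.01 they held 7, 34 and 32, and introns 1 and 2 together 14, 37 and 56. The control was then lower in both groups of introns, while the whole lists had ratios of 2.0 and 1.93. Introns 1 and 2 make up 50.2% of the gene and held 39.6% of control, 59.5% of siStar-PAP and 63.8% of siRBM10 summits. Of the 27 introns, 6 had no summit in any list, and each of these was shorter than 10 kb.

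The introns also held the highest scores. The 5 highest control scores all lay in intron 1, led by 79221871 with 6.80, and followed by 79231875 and 79279996 with 5.35 each, 79175395 with 4.74 and 79240576 with 4.09. On siStar-PAP the order was 78967475 in intron 3 with 5.74, 79277531 in intron 1 with 5.08, 78799276 at the start of intron 15 with 4.70, 79084830 in intron 2 with 4.56 and 78651509 before exon 26 with 4.06. On siRBM10 it was 78737507 in intron 19 with 6.31, 78787480 after exon 16 and 78957147 in intron 3 with 5.20 each, 79373475 in intron 1 with 4.56 and 79013056 in intron 2 with 4.48. The strongest control sites thus shared an intron that held 10 of the 53 control summits, while those of the depletion libraries were spread over several introns, and no position was among the 5 highest of more than 1 list.

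Exons of any transcript cover 5.13% of KCNMA1 and held 6 of 53 control summits (11.3%, Wilson interval 5.29 to 22.6), 2 of 84 on siStar-PAP (2.38%, 0.655 to 8.27) and 5 of 94 on siRBM10 (5.32%, 2.29 to 11.9). The 3 intervals overlapped, those of siStar-PAP and siRBM10 contained the exon share of the gene, and the lower limit of the control lay just above it. For p of at most 0.01 the counts were 1 of 22 (4.55%, 0.807 to 21.8), 2 of 71 (2.82%, 0.776 to 9.70) and 5 of 89 (5.62%, 2.42 to 12.5), and all 3 intervals contained the exon share. Most of these exons belong to alternative transcripts, and the 28 exons of the representative transcript (0.814% of the gene) held 2, 0 and 1 summits. Of the intronic summits, 3 of 51 in the control (5.88%), 3 of 84 on siStar-PAP (3.57%) and 2 of 93 on siRBM10 (2.15%) lay within 500 bp of an exon of this transcript, a zone that covers 3.62% of its intron length.

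In the 3′-UTR, the part of the message next to the site of cleavage and polyadenylation, KCNMA1 had 1 control summit by the representative transcript and no summit in either depletion list. This summit, at 78646999 with a score of 2.28, lay 28 bp after the last coding base and 2359 bp before the annotated end, in a 3′-UTR of 2387 bp at chr10:78644640-78647026. A second control summit, at 78755119 with a score of 1.33, fell in a 3′-UTR of an alternative transcript inside intron 19, so that over all transcripts the counts were 2, 0 and 0. The nearest siStar-PAP summit stood 4483 bp from the representative 3′-UTR and the nearest siRBM10 summit 1666 bp from it. No list had a summit in the 15281 bp between the end of the representative transcript and the annotated end of the gene. Past that end the next summits, which are not members, lay at 127 bp for siStar-PAP, 1356 bp for siRBM10 and 5494 bp for the control.

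Among genes with a control summit in the 3′-UTR, this pattern was frequent. Of 19703 protein-coding genes with an annotated 3′-UTR, 16.2% held a control summit in it, and of those 3187 genes 41.7% had none there in both depletion lists. Those genes were chosen on the control list alone, and the reverse pattern was not counted. The 3′-UTR of KCNMA1 rested on 1 or 2 summits in 1 library, too few to show a difference from the count of 0 in the depletion lists.

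Coding sequence held a single control summit, 78799383 in exon 15 with a score of 1.33, and a single siRBM10 summit, 78651285 at the 3′ end of exon 26 with a score of 3.6. Both had a siStar-PAP summit close by in the adjoining intron. At exon 15 the siStar-PAP summit 78799276 lay 107 bp from the control summit and 10 bp into intron 15. At exon 26 the siStar-PAP summit 78651509 (score 4.06) lay 224 bp from the siRBM10 summit and 32 bp before the exon. Around exon 16 each library had a summit in a flanking intron, the control at 78788012 (score 1.65), siStar-PAP at 78787698 (2.64) and siRBM10 at 78787480 (5.20). Neighbours of these 3 stood 314 and 218 bp apart, and the control and siRBM10 summits 532 bp. It was the site at which all 3 libraries came closest, since no position of KCNMA1 had all 3 within 500 bp of each other. The siRBM10 summit in exon 26 and the siStar-PAP summit before it also lie inside KCNMA1-AS1, an antisense RNA.

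**Figure D3:**
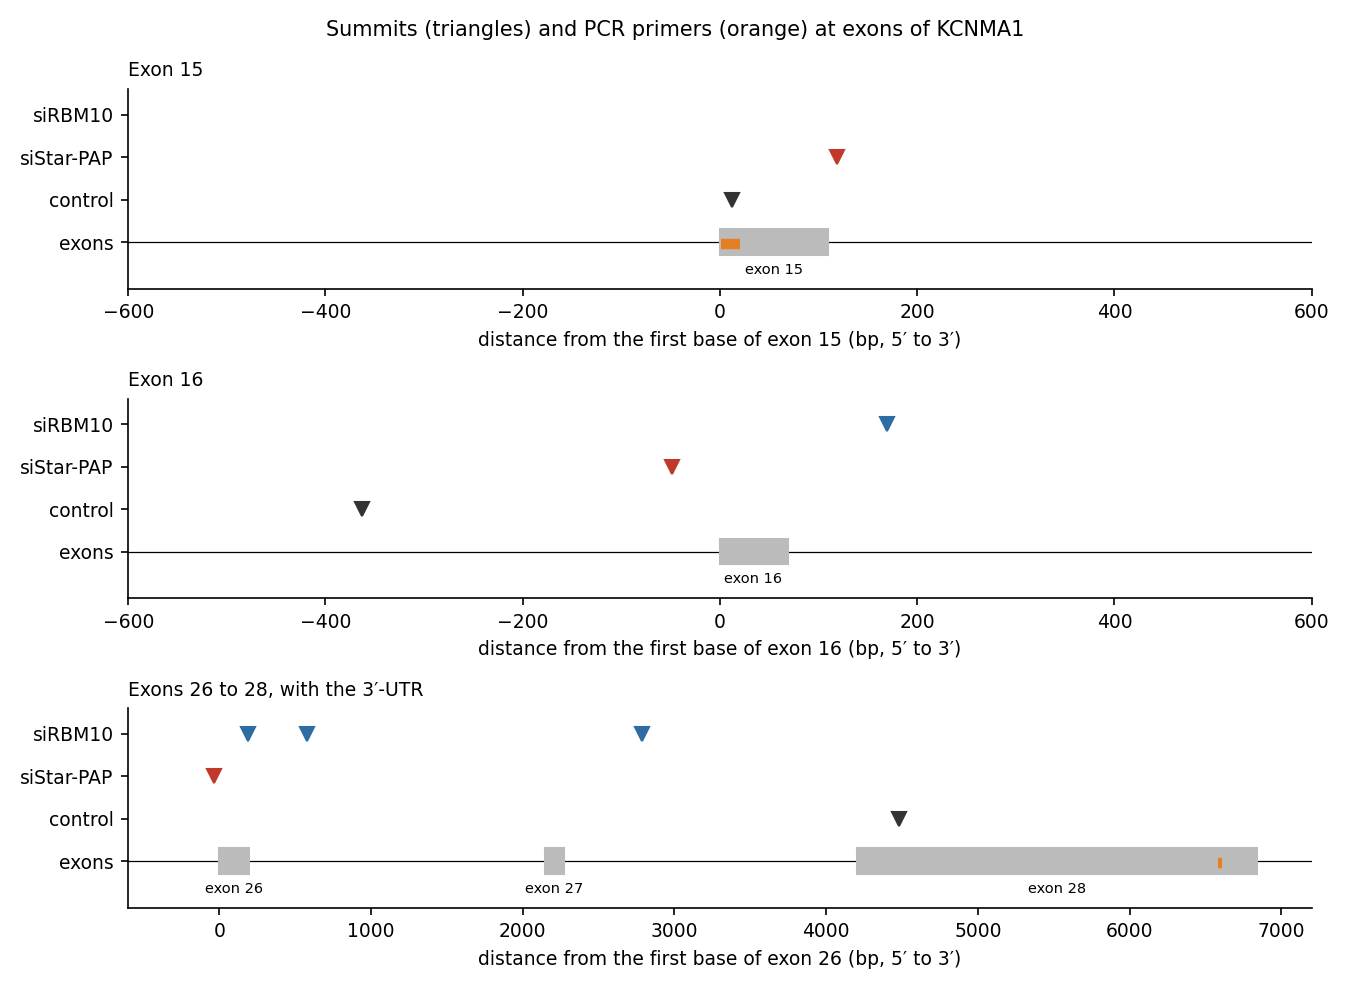
Summits (triangles, by library) around exon 15, exon 16 and exons 26 to 28 of KCNMA1, with exons as boxes and the placed PCR primers in orange, against distance in bp. The control summit of exon 15 lies under the reverse primer, and the last exon carries 1 control summit and none of siStar-PAP or siRBM10.

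The remaining exonic summits lay in exons of alternative transcripts. In the control these were 78661400 and 78779213 with scores of 1.33 and 78837780 with 1.49. On siStar-PAP they were 78673345 with 3.40 and 78850908, in an alternative 5′-UTR inside intron 9, with 2.30. On siRBM10 they were 78671440, 78672043, 79258499 and 78900429, of which the last lay in an alternative 5′-UTR. No exonic summit of one library fell within 500 bp of an exonic summit of another.

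The study designed PCR primers against KCNMA1, shown here because they mark where the gene was assayed by RNA immunoprecipitation, expression and 3′-end measurements. The UTR forward primer also served for 3′-RACE, a PCR of polyadenylated 3′ ends. By RNA immunoprecipitation the study reported more Star-PAP at the KCNMA1 3′-UTR than at its coding sequence, and a loss on Star-PAP depletion. It also reported less 3′-RACE product and more uncleaved pre-mRNA on depletion. PCR signal and summit counts are unlike measures. Of 6 primers, the 5 below were placed by an exact match to hg19. The UTR reverse primer had no exact match in the gene and is not shown, so the limits of the UTR amplicon are not given.
RNA immunoprecipitation forward, exon 14, chr10:78832955-78832974: gaaggtgatgacgcaatctg
RNA immunoprecipitation reverse, exon 15, chr10:78799375-78799394: ctgccatgtgtcttcctcaa
UTR forward, exon 28, chr10:78644871-78644892: aagttacgccctcagaacattt
CDS forward, exon 1, chr10:79397304-79397323: tagcaatatccacgcgaacc
CDS reverse, exon 1, chr10:79397190-79397208: tgatgagcgcatccatctt
The reverse primer in exon 15 covered the control summit 78799383, lay 99 bp from the nearest siStar-PAP summit and 2292 bp from the nearest siRBM10 summit. The UTR forward primer in the last exon lay 2107 bp from the nearest control summit, 6617 bp from siStar-PAP and 3800 bp from siRBM10. In exon 1 the CDS forward primer lay 14491 bp from the nearest control summit, 3751 bp from siStar-PAP and 1473 bp from siRBM10. The control and siRBM10 summits meant here, 79411814 and 79398796, lay beyond the 5′ end of KCNMA1 and are not members. Of the placed primers, the one in exon 15 alone had a summit of any library within 500 bp.

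Few summits of KCNMA1 recurred between libraries. Within 500 bp of a control summit, 5 of 53 (9.43%, 4.10 to 20.3) had a siStar-PAP summit, beside 10.9% of all control summits, and 4 of 53 (7.55%, 2.97 to 17.9) had a siRBM10 summit, beside 8.9%. Of the siStar-PAP summits, 5 of 84 (5.95%, 2.57 to 13.2) had a control summit in reach, beside 13.9% of the list, and 12 of 84 (14.3%, 8.37 to 23.3) had a siRBM10 summit, beside 16.4%. Of the siRBM10 summits, 4 of 94 (4.26%, 1.67 to 10.4) had a control summit in reach, beside 12.5%, and 12 of 94 (12.8%, 7.46 to 21.0) had a siStar-PAP summit, beside 18.2%. Shares for the control and for the 2 depletion libraries with each other lay within counting error of the list. The intervals of siStar-PAP and siRBM10 summits with a control summit lay below it at 500 bp. At 250 bp these 2 intervals contained the list shares of 7.81% and 6.73%. At 500 bp that of siStar-PAP also contained the share of chromosome 10, 12.9%. KCNMA1 had fewer control summits per length than its chromosome, which bears on the shares with a control summit, and its part was not tested.

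The closest pairs stood in introns. The control summit 78910698 and a siRBM10 summit had the same base, and the control summit 79279996 and the siStar-PAP summit 79279997 were 1 bp apart. A control summit at 79326938 and a siRBM10 summit at 79326866 were 72 bp apart. Between siStar-PAP and siRBM10 the closest were 79278939 and 79278904, 35 bp apart in intron 1, and 79170598 and 79170530, 68 bp apart in the same intron. With p at most 0.01 none of the control summits of KCNMA1 had a siStar-PAP summit within 500 bp.

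**Figure D4:**
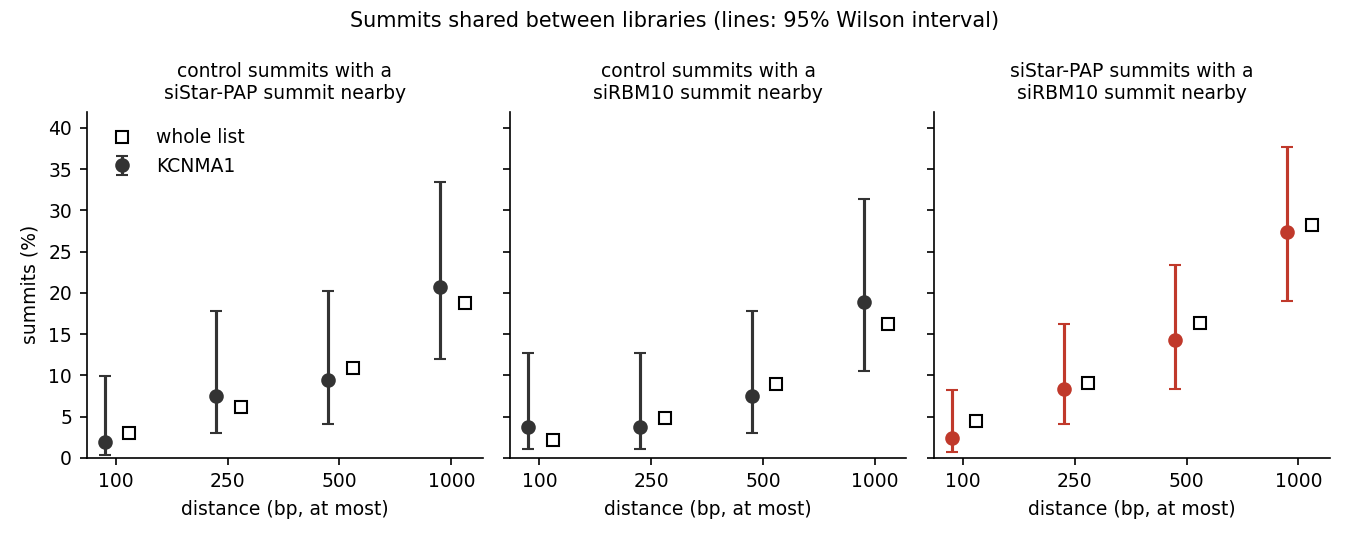
Percent of summits with a summit of another library within 100, 250, 500 and 1000 bp (vertical axis). KCNMA1 is shown as points with 95% Wilson intervals and the whole list as open squares. The panels show control summits with siStar-PAP, control summits with siRBM10 and siStar-PAP summits with siRBM10. The reverse directions are not plotted. At 500 bp the control points, 9.43% and 7.55%, lie near the list at 10.9% and 8.9%.

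The mean GC content around the summits was lower in the control than in the depletion libraries. In windows of 20 nt on the minus strand, mean GC was 42.5% ± 13.2 (SD, n = 53 summits) in the control, 48.5% ± 13.3 (n = 84) on siStar-PAP and 48.0% ± 11.0 (n = 94) on siRBM10, beside 43.9% for the gene. The spread among summits of 1 library exceeded the distance between libraries, and summits of 1 library are not replicates of a condition. At p of at most 0.01 the means were 44.5%, 47.3% and 47.5%, and so closer to each other. The AUA triplet, part of the motif linked to Star-PAP, stood in 15 of 53 control windows (28.3%, 18 to 41.6), 18 of 84 on siStar-PAP (21.4%, 14.0 to 31.3) and 20 of 94 on siRBM10 (21.3%, 14.2 to 30.6), and in 21.5% of all such windows of the gene. The 3 shares did not differ beyond counting error, and none of them from that of the gene. A run of 6 U was found in 3, 1 and 2 windows (5.66%, 1.19% and 2.13%), beside 1.61% of all such windows of the gene. A run of 6 G was found in 0 of the windows of each library, beside 0.173% over the gene. These counts are too small to compare. Among the 10 sites printed above, none had AUA within its 20 nt, while the coinciding summits at 78910698 and at 79279996 and 79279997 had it.

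KCNMA1 was set beside the 258 protein-coding genes of 500 to 1100 kb, itself included, chosen by length alone. Their median density was 162.6 control, 77.1 siStar-PAP and 79.1 siRBM10 summits per Mb, and KCNMA1 ranked 245 from the top in the control, 64 on siStar-PAP and 47 on siRBM10. Its ratios to the control ranked 26 and 20 from the top, where the medians were 0.460 and 0.469 and 37 and 39 genes lay above 1. With a GC content of 43.9% KCNMA1 ranked 30, beside a median of 38.6%. Over these genes the siStar-PAP ratio correlated with GC with a Pearson r of 0.842 and a Spearman rho of 0.801, and the siRBM10 ratio with 0.843 and 0.841. Control density fell with GC (r = -0.705, rho = -0.626) and siStar-PAP density rose with it (r = 0.781, rho = 0.724), as did that of siRBM10 (r = 0.780, rho = 0.778). These correlations are descriptions across genes of the same 3 libraries, were computed after the data were seen, and do not come from independent replicates. KCNMA1 was high in its ratios and high in GC among long genes, and the part of GC in its ratios was not tested.

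**Figure D5:**
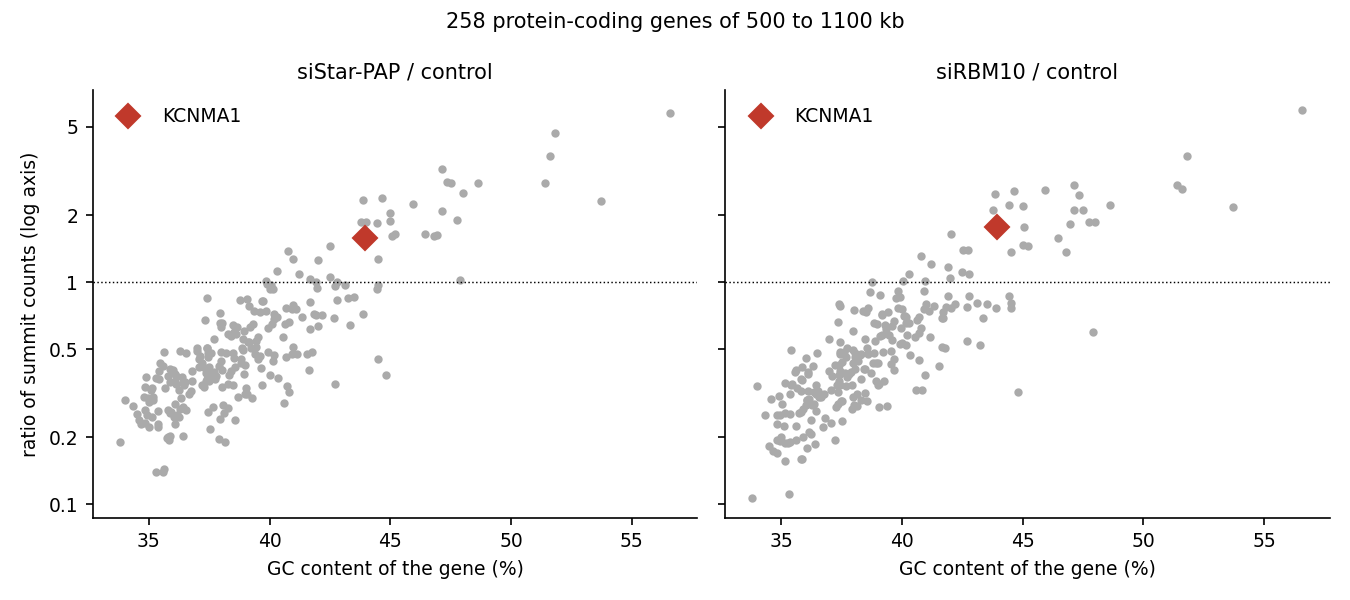
Ratio of summits to the control (vertical log axis) against GC content in percent (horizontal axis) for the 258 protein-coding genes of 500 to 1100 kb, with siStar-PAP and siRBM10 in separate panels and KCNMA1 as a red diamond. KCNMA1, at 43.9% GC and ratios of 1.58 and 1.77, lies inside the cloud of genes, in which ratios rise with GC.

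Genes with the pattern most like KCNMA1 were sought among 1071 protein-coding genes of at least 250 kb, by the distance between log2 densities over the 3 lists. NAV2 came nearest (distance 0.29) with 64 control, 81 siStar-PAP and 87 siRBM10 summits. It was followed by ITPR1 (0.39) with 20, 35 and 52, DOCK2 (0.39) with 40, 47 and 53, FRMD4A (0.40) with 58, 108 and 123, and KCNIP1 (0.40) with 28, 53 and 52. The genes were chosen on these same counts, so their likeness to KCNMA1 is a description only.

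Among the relatives of KCNMA1, both directions were found. Of 15 other genes of calcium-activated or SLO-family potassium channels and their subunits, 8 had more summits in both depletion libraries than in the control, 6 had fewer in both and 1 was mixed. Over all 20163 protein-coding genes, 44.2% had more in both and 26% had fewer in both. With p at most 0.01, 11 of the 15 had more in both and 0 had fewer, beside 57.6% and 3.87% of all genes. In the SLO family, KCNT1, a sodium-activated channel, had 5 control, 32 siStar-PAP and 20 siRBM10 summits, its paralogue KCNT2 had 73, 11 and 11, and KCNU1, the channel of sperm, had 27, 4 and 12. Paralogues of the same family thus stood on opposite sides of the control. Of the beta subunits, which tune the calcium response of BK, KCNMB2 had 76, 29 and 26 summits, KCNMB4 had 19, 8 and 7, KCNMB3 had 4, 3 and 2, and KCNMB1 had 1, 2 and 3. The leucine-rich gamma subunits had few, led by LRRC38 with 1, 9 and 6. Of the channels of small and intermediate conductance, KCNN1 had 2, 17 and 9, KCNN2 had 80, 25 and 22, KCNN3 had 10, 31 and 24, and KCNN4 had 1, 5 and 3.

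On either side of KCNMA1 the counts also varied. LRMDA, the next protein-coding gene beyond its 3′ end at a distance of 309.4 kb, held 124 control, 101 siStar-PAP and 121 siRBM10 summits. DLG5, which encodes a scaffold protein and lies 152.4 kb beyond the 5′ end, held 10, 34 and 27. Within KCNMA1, 9 control, 19 siStar-PAP and 14 siRBM10 summits also lay inside another annotated gene, of which KCNMA1-AS1 in the 3′ part of the gene took 8, 12 and 10 and KCNMA1-AS3 took 1, 6 and 3. In the exons of KCNMA1-AS1 there were 2, 1 and 2 summits.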

How the data were processed

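The authors sequenced Star-PAP HITS-CLIP libraries of HEK293 cells (control, siStar-PAP, siRBM10) and an IgG reference, removed low-quality and duplicate reads, mapped the rest to hg19 and called peaks per library against IgG. The submitters' processing notes name FastQC 0.72, cutadapt 1.14, BWA 0.7.12 and MACS2. In the 3 deposited lists each peak is a single base, its summit, scored by the authors as −log10 of the MACS2 p-value, the largest p being 0.05. Tag numbers, widths and strands were not used here, so the depth behind a summit is unknown. No IgG list was used here.

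The annotation was the hg19 version of GENCODE release 44, whose chromosome 10 has the length of the reference used. A summit in coding sequence of any transcript was classed as such, failing that by UTR (3′ before 5′), other exon or intron, and introns and exons were numbered by the MANE Select transcript. Reach between summits was 500 bp. Counts carry exact Poisson, exact conditional ratio and Wilson intervals. With 1 library per condition no test was made. Genes named are KCNMA1, a list of calcium-activated potassium channel genes, overlapping and neighbouring genes, and the 5 long genes nearest in density. Single summits named are those in exons, the 5 highest scores, those within reach and those nearest to primers, with a choice of these printed. Members and lists were chosen with earlier results of these data known. Alternatives were score limits, reach, transcript set and margins. Scripts were tested on simulated data. Software was scipy 1.17.1 (intervals), pandas 2.3.3 and numpy 2.4.6 (tables) and matplotlib 3.10.9 (figures), under Python 3.11.15.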

Additional observations from a re-analysis of the deposited data

How the results depend on the processing

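Of 73 alternative values for 25 results in and around KCNMA1, 40 stayed within 1.5 times the main count or within the 95% interval of the main share, ratio or mean, 31 moved beyond it and 2 reversed. Intervals of shares were wide, so that 3.77% for control with siRBM10 at 100 and 250 bp still lay within that of 7.55%. No paired analysis was possible because each condition is 1 library. With p at most 0.01, the control count fell to 22, the ratios were 3.23 (siStar-PAP) and 4.05 (siRBM10), 0 control summits had a siStar-PAP summit in reach, 1 control summit was exonic, 63.6% of control summits lay in the 5′-most 5 of 10 segments, and 0 related channel genes were lower in both depletion libraries. Above the commonest score of each list, the counts were 24, 10 and 15, both ratios reversed to 0.417 and 0.625, and 0 control summits were in reach of either depletion library. This limit sits at a different score in each list by construction. At scores of at least 3 and 4, added after the data were seen, the siStar-PAP ratio was 1 at both, and the siRBM10 ratio was 3.8 at the former. A reach of 100 bp gave 1.89% for control with siStar-PAP and 2.38% for siStar-PAP with siRBM10, which had 8.33% at 250 bp. A reach of 1000 bp gave 20.8% and 27.4% for these pairs and 18.9% for control with siRBM10. Exonic summits numbered 2, 0 and 1 by the representative transcript, 3, 1 and 2 by protein-coding transcripts, and 7, 6 and 7 with a margin of 250 bp. The representative 3′-UTR held 1 control summit. With 1000 bp added downstream of the 3′-UTRs of all transcripts, alternative ones inside the gene included, there were 2 control, 2 siStar-PAP and 1 siRBM10 summits. The cause of these moves was not tested. The exonic and 3′-UTR counts each rest on 0 to 6 summits of 1 library, and the depth behind them is unknown.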
